A study of Mus musculus with 4 samples.

Results

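The 2 Runx1(GFP)+ populations of the embryonic aorta were compared with each other, gene by gene: the Runx1+ cells of the intra-aortic hematopoietic clusters (Runx1+ IAHCs) and the hemogenic endothelial cells (HECs). Both were sorted from mouse AGM (the aorta with the gonads and mesonephros around it) at embryonic day 11 (E11). The labels give these embryos as wild type (WT) with a GFP reporter in the Runx1 locus, while the supplement of the study describes pools of embryos heterozygous or homozygous for it, which leaves the reporter copies per library uncertain. All cells were sorted as NG2-PDGFRβ-CD31+, that is, negative for pericyte markers and positive for an endothelial marker that early blood cells also carry. Runx1+ IAHCs were ckit+Runx1(GFP)+ with no gate on CD45, and HECs were ckit-CD45-Runx1(GFP)+. The gates therefore differed in ckit, the stem cell factor receptor, and in CD45, the common leukocyte antigen. Each population had 1 library, so no difference has a replicate check or a test, and 2 of the 4 libraries of the series were used. The other libraries, endothelial cells without Runx1 (ECs, ckit-CD45-Runx1(GFP)-) and Runx1- IAHCs (ckit+Runx1(GFP)-), are given beside some values. Of 51205 genes in the table, 7279 reached 10 TPM (transcript levels corrected for gene length and depth) in the higher of the Runx1+ IAHC and HEC libraries, and these were compared.

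Hemogenic endothelium lines the ventral aorta and releases blood cells by an endothelial-to-hematopoietic transition (EHT) that needs the transcription factor Runx1. The released cells collect in clusters on the aortic wall, where they lose endothelial proteins and gain ckit, CD45 and the surface proteins of hematopoietic stem and progenitor cells (HSPCs). In the same embryo, primitive and definitive megakaryocytes, erythrocytes and myeloid cells from the yolk sac circulate, and several of these also express Runx1 and CD31.

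Depth was similar in the 2 libraries. The genes of the table held 15412242 reads in Runx1+ IAHCs and 16377799 reads in HECs, and 21167 genes in Runx1+ IAHCs and 20005 genes in HECs had at least 1 read. No TPM value was 0, and the values fitted 1 read added to every gene, so a gene without a read is listed at a small value set by its length. Folds and exact 95% intervals below come from the recovered reads without the added read, cover counting error only (the reads are PCR copies without molecular identifiers), and are lower bounds against 3 reads where a library had none. Differences are of log2(TPM + 1), Runx1+ IAHC minus HEC, a scale that understates the difference of low genes. In bulk libraries, fewer cells of a type and less RNA per cell cannot be told apart.

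Among the genes of the sort markers, Kit and Ptprc differed in the direction of the gates. The gates for CD31, PDGFRβ, NG2 and Runx1(GFP) were the same in both populations. Kit was at 34.5 TPM in Runx1+ IAHCs and 1.08 TPM in HECs (32.1-fold higher, 26.3 to 39.6), and the CD45 gene Ptprc stood at 11.4 TPM in Runx1+ IAHCs and 0.246 TPM (46 reads) in HECs. Runx1 itself was close in the 2 gates, at 10.1 TPM (9.50 to 10.7) in Runx1+ IAHCs and 12.96 TPM (12.3 to 13.6) in HECs. The CD31 gene Pecam1 was lower, at 11.9 TPM in Runx1+ IAHCs and 41.3 TPM in HECs. Among 6 such genes, Pdgfrb and Cspg4 did not reach 10 TPM, with Pdgfrb at 3.30 TPM in Runx1+ IAHCs and 0.734 TPM in HECs.

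The labels were then set against markers of the cell types that the gates could hold. All 7 endothelial markers (Cdh5, Kdr, Pecam1, Tek, Esam, Emcn and Cldn5) had more than 3 reads in both libraries, and their summed level was 58.3 TPM in Runx1+ IAHCs and 236 TPM in HECs, against 1730 TPM in ECs. The 6 megakaryocyte and platelet markers summed to 114 TPM in Runx1+ IAHCs and 51918 TPM in HECs, so that the HEC library held far more platelet than endothelial transcripts. Of 6 neutrophil and eosinophil markers, 3 in Runx1+ IAHCs and 6 in HECs had more than 3 reads, and they summed to 149 TPM in Runx1+ IAHCs and 1762 TPM in HECs. The 5 mast cell and basophil markers ran the other way, at 218 TPM in Runx1+ IAHCs and 25.1 TPM in HECs. The 5 erythroid markers summed to 152 TPM in Runx1+ IAHCs and 12776 TPM in HECs. The 6 macrophage markers summed to 20.98 TPM in Runx1+ IAHCs, mostly Csf1r, and 6.73 TPM in HECs, and went both ways. Csf1r, C1qb and C1qc were higher in Runx1+ IAHCs. Adgre1 (30 reads in Runx1+ IAHCs and 61 in HECs) and Mrc1 (29 reads in Runx1+ IAHCs and 89 in HECs) were higher in HECs, and C1qa had no read in either library. Of the lymphoid markers, Cd3e had no read in either library and Rag1 had 34 reads in Runx1+ IAHCs and 0 in HECs. Pericyte and smooth muscle markers (14.99 TPM in Runx1+ IAHCs and 52.2 TPM in HECs, mostly Acta2), germ cell markers (4.13 TPM in Runx1+ IAHCs and 12.01 TPM in HECs), hepatic markers (1.70 TPM in Runx1+ IAHCs and 0.240 TPM in HECs) and neural markers (0.174 TPM in Runx1+ IAHCs and 4.93 TPM in HECs) were low. What part these cell types had in the differences below was not tested.

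Most genes were alike in the 2 gates. Of the 7279 genes, 5299 (72.8%) lay within 2-fold, the median difference was 0.19 on the log2(TPM + 1) scale, and the quartiles were -0.44 and 0.68. With the libraries scaled by the median of ratios, the median difference of all genes was -0.02, so a list median no further from 0 than that of all genes carries no direction. Runx1+ IAHCs had 203 genes at least 4-fold higher than HECs (2.79%) and 453 genes at least 4-fold lower (6.22%), together 9.01% of those compared. Fold limits, and statements that a gene lay within 4-fold, refer throughout to this scale, on which a plain TPM ratio above 4 can fall short for genes of low level. List medians cover the genes that reached 10 TPM in either library and can differ from those over the whole list. A gene that reached 10 TPM in only 1 library had to be higher in that library. The 2 tails differed in size and in level. At 16-fold or more there were 19 higher and 107 lower genes, and among genes at 100 TPM or more, 19 were at least 4-fold higher and 124 lower. The 203 higher genes had a median of 20.5 TPM in Runx1+ IAHCs and 2.20 TPM in HECs, and the 453 lower genes 3.27 TPM in Runx1+ IAHCs and 40.4 TPM in HECs. Of the higher genes 18 had no read in HECs, and of the lower genes 38 had none in Runx1+ IAHCs.

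**Figure D1:**
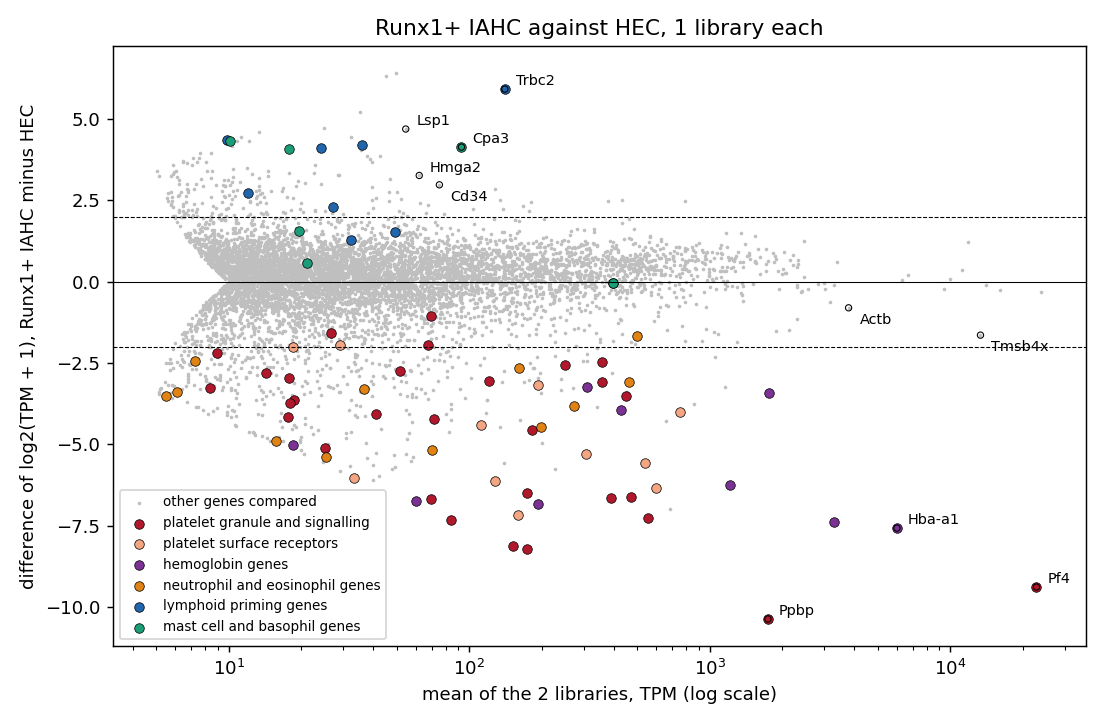
Difference of log2(TPM + 1), Runx1+ IAHC minus HEC (vertical axis), against the mean level of the 2 libraries in TPM (horizontal axis, log scale), 1 point per gene for the 7279 genes compared, with 6 gene lists in colour and dashed lines at 4-fold. The points furthest below 0 at high level are platelet and hemoglobin genes (Pf4, Ppbp and Hba-a1), and the named points furthest above 0 (Trbc2, Lsp1 and Cpa3) are lower in level.

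Genes of platelets and megakaryocytes were the largest listed group that was lower in Runx1+ IAHCs. Pf4 (ENSMUSG00000029373, GRCm38 chromosome 5, 90772435 to 90773383), a chemokine of platelet granules, was at 67.2 TPM in Runx1+ IAHCs and 45657 TPM in HECs, 681-fold lower (624 to 746), with 360 TPM in ECs and 38.1 TPM in Runx1- IAHCs. It took 0.00705% of all TPM in Runx1+ IAHCs and 4.77% in HECs. Its neighbour Ppbp (chromosome 5, 90768518 to 90770063), another platelet chemokine, was at 1.63 TPM (17 reads) in Runx1+ IAHCs and 3494 TPM in HECs, 2267-fold lower (1416 to 3892). Of 35 granule and signalling genes listed, 34 were in the table and 31 compared; 27 were at least 4-fold lower, 0 were higher, and the median difference was -3.73. Alox12, the platelet lipoxygenase, was at 0.168 TPM in Runx1+ IAHCs and 348 TPM in HECs, and Thbs1, which encodes thrombospondin, at 6.11 TPM in Runx1+ IAHCs and 1098 TPM in HECs. The inhibitory receptor gene Mpig6b had no read in Runx1+ IAHCs and was at 168 TPM in HECs, at least 1354-fold lower. Ly6g6f likewise had no read in Runx1+ IAHCs and was at 304 TPM in HECs, at least 1179-fold lower. The thrombin receptor genes F2r (14.1 TPM in Runx1+ IAHCs and 351 TPM in HECs), F2rl2 (6.75 TPM in Runx1+ IAHCs and 771 TPM in HECs) and F2rl3 (6.35 TPM in Runx1+ IAHCs and 136 TPM in HECs) were each lower. The activating receptor gene Clec1b (2.81 TPM in Runx1+ IAHCs and 344 TPM in HECs) and Treml1 (8.40 TPM in Runx1+ IAHCs and 933 TPM in HECs) were lower as well. An exception was Srgn, a granule proteoglycan of many blood cells, at 393 TPM in Runx1+ IAHCs and 402 TPM in HECs. Ptgs1 (44.7 TPM in Runx1+ IAHCs and 94.5 TPM in HECs), Sparc (12.8 TPM in Runx1+ IAHCs and 40.3 TPM in HECs) and Nrgn (26.9 TPM in Runx1+ IAHCs and 108 TPM in HECs) also lay within 4-fold.

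Surface receptors of platelets were lower for 10 of the 11 genes compared (13 listed), with a median of -5.31. The von Willebrand factor receptor subunits Gp1ba (1.23 TPM in Runx1+ IAHCs and 319 TPM in HECs), Gp1bb (13.6 TPM in Runx1+ IAHCs and 1179 TPM in HECs), Gp5 (2.64 TPM in Runx1+ IAHCs and 253 TPM in HECs) and Gp9 (21.2 TPM in Runx1+ IAHCs and 1053 TPM in HECs) were 49.99-fold (Gp9) to 268-fold (Gp1ba) lower. Gp6, a collagen receptor gene, had 1 read in Runx1+ IAHCs and was at 66.1 TPM in HECs. Of the fibrinogen receptor subunits, Itga2b (CD41) was at 9.13 TPM in Runx1+ IAHCs and 215 TPM in HECs, and Itgb3 at 14.1 TPM in Runx1+ IAHCs and 596 TPM in HECs. The tetraspanin gene Cd9 was at 87.01 TPM in Runx1+ IAHCs and 1424 TPM in HECs. Itga6, a laminin receptor subunit found well beyond platelets, was the gene within 4-fold, at 11.4 TPM in Runx1+ IAHCs and 46.7 TPM in HECs.

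The start-site regions of genes at the 2 ends of the comparison are shown because these genes mark the contrast, and because blood cell promoters are known for GATA, RUNX and ETS sites. The windows hold 300 bases around the RefSeq start (GRCm38.p6), most of them before it, 5′ to 3′ on the gene's strand. Capitals mark AGATAA and its variant TGATAA for GATA factors, TGTGGT for RUNX factors and AGGAAG for ETS factors, on either strand. These motifs were chosen after the levels were known, and no 2 of the matches overlap in the 6 windows. Cpa3 (chr3:20242132-20242431, minus strand) and Cd34 (chr1:194938571-194938870, plus strand) were higher in Runx1+ IAHCs. Lower were Pf4 (chr5:90772185-90772484, plus strand), Ppbp (chr5:90768268-90768567, plus strand), Gp1ba (chr11:70638872-70639171, plus strand) and Hba-a1 (chr11:32283422-32283721, plus strand).
Cpa3: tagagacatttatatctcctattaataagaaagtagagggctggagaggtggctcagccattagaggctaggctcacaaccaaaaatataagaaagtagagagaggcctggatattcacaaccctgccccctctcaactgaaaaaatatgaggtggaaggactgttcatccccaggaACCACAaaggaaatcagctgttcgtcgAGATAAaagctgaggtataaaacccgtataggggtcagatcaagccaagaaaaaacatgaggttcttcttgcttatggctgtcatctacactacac
Cd34: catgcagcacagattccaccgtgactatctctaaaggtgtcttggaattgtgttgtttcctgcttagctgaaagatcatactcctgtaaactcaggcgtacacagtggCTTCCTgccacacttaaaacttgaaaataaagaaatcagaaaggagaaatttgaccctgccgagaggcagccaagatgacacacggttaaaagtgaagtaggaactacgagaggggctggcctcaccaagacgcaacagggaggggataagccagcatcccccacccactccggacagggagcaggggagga
Pf4: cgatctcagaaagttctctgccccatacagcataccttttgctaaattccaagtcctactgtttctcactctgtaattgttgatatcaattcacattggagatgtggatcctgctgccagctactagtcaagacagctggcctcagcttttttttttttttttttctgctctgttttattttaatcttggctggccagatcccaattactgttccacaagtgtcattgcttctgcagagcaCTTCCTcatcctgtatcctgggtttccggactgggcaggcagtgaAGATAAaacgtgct
Ppbp: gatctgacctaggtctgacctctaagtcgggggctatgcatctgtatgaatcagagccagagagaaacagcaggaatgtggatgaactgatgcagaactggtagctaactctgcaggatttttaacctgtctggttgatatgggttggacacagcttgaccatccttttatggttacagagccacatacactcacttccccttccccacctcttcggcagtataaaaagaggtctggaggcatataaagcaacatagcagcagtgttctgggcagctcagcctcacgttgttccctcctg
Gp1ba: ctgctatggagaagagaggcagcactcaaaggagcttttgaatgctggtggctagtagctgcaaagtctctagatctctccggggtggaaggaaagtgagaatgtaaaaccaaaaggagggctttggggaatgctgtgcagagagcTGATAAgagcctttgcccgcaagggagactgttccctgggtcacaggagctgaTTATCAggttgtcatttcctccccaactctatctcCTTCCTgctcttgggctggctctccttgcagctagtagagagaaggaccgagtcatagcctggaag
Hba-a1: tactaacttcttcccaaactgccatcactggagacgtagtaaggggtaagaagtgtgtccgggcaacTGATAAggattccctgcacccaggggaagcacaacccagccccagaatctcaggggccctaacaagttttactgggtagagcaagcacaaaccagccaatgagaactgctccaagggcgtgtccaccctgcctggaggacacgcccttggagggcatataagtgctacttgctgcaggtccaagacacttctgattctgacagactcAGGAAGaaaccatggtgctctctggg
Pf4 holds AGATAA close to its start and Cpa3, at the other end of the comparison, holds it too, whereas Ppbp holds none of these motifs in this window. Among the 15 genes with the largest negative differences at 100 TPM or more, 14 had a RefSeq window, and 8 of these held AGATAA or TGATAA, 1 TGTGGT and 7 AGGAAG. Of the 15 with the largest positive differences, 9 had a window, of which 1 held AGATAA or TGATAA, 1 TGTGGT and 3 AGGAAG. Over all 27025 windows the shares were 18.95%, 16.9% and 35.15%. A match is a run of letters and not a measured site.

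Transcription factors of the megakaryocyte lineage were lower as well, but by less than the genes of the mature cell. Of 12 listed, 10 were compared, 4 were at least 4-fold lower, none was higher, and the median was -1.80. Gata1, the main factor of megakaryocytes and erythrocytes, was at 37.8 TPM in Runx1+ IAHCs and 315 TPM in HECs (8.34-fold lower, 7.79 to 8.93). Gfi1b, a repressor of the same lineages, was at 27.9 TPM in Runx1+ IAHCs and 246 TPM in HECs. Tal1 was at 26.3 TPM in Runx1+ IAHCs and 125 TPM in HECs. Nfe2 (73.5 TPM in Runx1+ IAHCs and 238 TPM in HECs), Fli1 (29.6 TPM in Runx1+ IAHCs and 80.5 TPM in HECs) and Zfpm1 (12.5 TPM in Runx1+ IAHCs and 32.2 TPM in HECs), the cofactor of Gata1, lay within 4-fold. Mef2c was nearly level at 28.7 TPM in Runx1+ IAHCs and 34.5 TPM in HECs.

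All 9 hemoglobin genes compared, of 10 listed, were lower in Runx1+ IAHCs (median -6.25). The hemoglobin genes took 0.0575% of all TPM in Runx1+ IAHCs and 2.73% in HECs. The adult alpha globin genes Hba-a1 and Hba-a2 are near-identical copies whose reads cannot be told apart with certainty. Hba-a1 was at 61.7 TPM in Runx1+ IAHCs and 11959 TPM in HECs, and Hba-a2 at 38.1 TPM in Runx1+ IAHCs and 6513 TPM in HECs. The embryonic genes Hbb-y (30.4 TPM in Runx1+ IAHCs and 2393 TPM in HECs) and Hba-x (2.41 TPM in Runx1+ IAHCs and 384 TPM in HECs) and the early Hbb-bh1 (303 TPM in Runx1+ IAHCs and 3226 TPM in HECs) were also lower. Hba-x and Hbb-y were higher still in ECs, at 6410 TPM for Hba-x and 19127 TPM for Hbb-y. Genes of the red cell membrane and its enzymes did not share this difference: of 6 compared (20 listed), only Gypc, at 37.2 TPM in Runx1+ IAHCs and 194 TPM in HECs, was 4-fold lower, and the median was -0.27. Among 9 heme and iron genes compared of 18, none was 4-fold apart (median -0.35). The ferritin light chain gene Ftl1 was at 975 TPM in Runx1+ IAHCs and 2817 TPM in HECs, and the transferrin receptor gene Tfrc at 28.3 TPM in Runx1+ IAHCs and 25.5 TPM in HECs. The 9 erythroid transcription factor genes compared of 12 went both ways (3 higher and 3 lower, median -0.29). Klf1, the activator of adult globin genes, was at 35.4 TPM in Runx1+ IAHCs and 3.25 TPM in HECs (11.1-fold higher, 8.31 to 15.1), opposite in direction to the globin genes. Epor, the erythropoietin receptor, was at 10.5 TPM in Runx1+ IAHCs and 93.8 TPM in HECs.

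Genes of mature granulocytes were lower in Runx1+ IAHCs, while those of their progenitors that reached 10 TPM lay within 4-fold. Of 23 neutrophil and eosinophil genes, 22 were in the table and 12 compared. Of these, 11 were at least 4-fold lower and the median was -3.46. Apart from S100a8, S100a9, Prg2, Stfa1 and BC100530, the 12 reached 10 TPM in HECs only. Over all 22 the median was -2.54. The calcium-binding proteins of neutrophils S100a8 (97.1 TPM in Runx1+ IAHCs and 829 TPM in HECs) and S100a9 (35.4 TPM in Runx1+ IAHCs and 511 TPM in HECs) and the eosinophil granule gene Prg2 (16.3 TPM in Runx1+ IAHCs and 379.6 TPM in HECs) were among the best expressed. Ngp, of neutrophil granules, had no read in Runx1+ IAHCs and 399 reads in HECs, and Epx, of eosinophil granules, had no read in Runx1+ IAHCs and 312 reads in HECs. Camp, which encodes a granule antimicrobial peptide, was at 2.85 TPM in Runx1+ IAHCs and 137 TPM in HECs. The stefin genes Stfa2, Stfa3 and BC100530 were also lower. Stfa1, the 1 gene within 4-fold, was at 239 TPM in Runx1+ IAHCs and 759 TPM in HECs. The stefins are close paralogs that can share reads. Of the granulocyte and monocyte progenitor genes, 12 were compared of 20 listed, 0 were 4-fold apart and the median was 0.33. Under 10 TPM in both libraries, Ctsg (9.13 TPM in Runx1+ IAHCs and 0.0927 TPM in HECs), Csf3r (7.21 TPM in Runx1+ IAHCs and 0.345 TPM in HECs) and Irf8 (5.87 TPM in Runx1+ IAHCs and 0.516 TPM in HECs) were more than 4-fold higher. Cebpa was higher, and Csf2ra and Clec12a lower, within 4-fold. Over all 18 in the table the median was 0.49. Mpo, the peroxidase of primary granules, was at 494 TPM in Runx1+ IAHCs and 170.1 TPM in HECs, and Prtn3 at 351 TPM in Runx1+ IAHCs and 145 TPM in HECs. Elane was at 73.7 TPM in Runx1+ IAHCs and 75.8 TPM in HECs and Ms4a3 at 45.5 TPM in Runx1+ IAHCs and 33.2 TPM in HECs. Lyz2, a lysozyme of more mature myeloid cells, was lower at 92.2 TPM in Runx1+ IAHCs and 286 TPM in HECs, within 4-fold.

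Several genes linked to lymphoid priming, among them Trbc2, Ighm and Flt3, were higher in Runx1+ IAHCs. Of 33 listed, 29 were in the table but only 8 reached 10 TPM; 6 were 4-fold or more higher, none was lower, and the median was 3.41. These 6 reached 10 TPM in Runx1+ IAHCs and not in HECs, so they had to differ in that direction, and over all 29 the median was 1.10. Trbc2 (ENSMUSG00000076498, chromosome 6, 41546730 to 41548352), a constant segment of the T cell receptor beta chain, was at 278 TPM in Runx1+ IAHCs and 3.60 TPM (25 reads) in HECs, 80.3-fold higher (54.2 to 124). It was at 0.171 TPM in ECs and 0.156 TPM in Runx1- IAHCs, where neither library had a read. Its paralog Trbc1 was at 46.8 TPM in Runx1+ IAHCs and 1.79 TPM in HECs, and reads may be shared between the pair. Ighm, the constant region of immunoglobulin M, was at 69.1 TPM in Runx1+ IAHCs and 2.79 TPM in HECs (25.2-fold higher, 19.2 to 33.7). Flt3, a cytokine receptor of multipotent and lymphoid progenitors, had 1240 reads (19.7 TPM) in Runx1+ IAHCs against none in HECs, and was at least 424-fold higher. Cd7 (21.7 TPM in Runx1+ IAHCs and 2.45 TPM in HECs) and Ltb (45.6 TPM in Runx1+ IAHCs and 8.52 TPM in HECs) passed 4-fold, and Cd79b (72.95 TPM in Runx1+ IAHCs and 24.9 TPM in HECs) and Il2rg (46.04 TPM in Runx1+ IAHCs and 18.5 TPM in HECs) did not. Of all 6 antigen receptor gene segments among the genes compared, 5 were 4-fold higher, beside 2.79% of all genes compared. Trbc1, Trbc2 and Ighm, which reached 10 TPM in Runx1+ IAHCs only, are among the 5.

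Some mast cell and basophil genes were also higher in Runx1+ IAHCs, while macrophage genes went both ways. Of 18 mast cell and basophil genes, 16 were in the table and 6 compared, of which 3 were higher, 0 lower and the median 2.83; Kit, set by the gate, is 1 of the 3. All 3 reached 10 TPM in Runx1+ IAHCs and not in HECs, and over all 16 genes the median was 0.81. Cpa3 (chromosome 3, 20215620 to 20242181), a carboxypeptidase of mast cell granules, was at 177 TPM in Runx1+ IAHCs and 9.09 TPM in HECs, 19.6-fold higher (16.5 to 23.3). Gzmb, which encodes granzyme B, was at 20.2 TPM in Runx1+ IAHCs without a read in HECs. Hdc, which makes histamine, was at 29.8 TPM in Runx1+ IAHCs and 9.38 TPM in HECs. The receptor chains Fcer1a (8.95 TPM in Runx1+ IAHCs and 5.18 TPM in HECs) and Ms4a2 (1.61 TPM in Runx1+ IAHCs and 1.36 TPM in HECs) stayed under 10 TPM. Of 23 macrophage genes, 8 were compared, 1 higher and 3 lower (median 0.95, against 0.12 over all 23). Ctss, a lysosomal protease, was at 32.3 TPM in Runx1+ IAHCs and 4.58 TPM in HECs, and Csf1r, the receptor for macrophage colony stimulating factor, at 13.3 TPM in Runx1+ IAHCs and 3.23 TPM in HECs. Both reached 10 TPM in Runx1+ IAHCs and not in HECs, and Csf1r lay within 4-fold. The 3 lower ones, Pf4, F13a1 and P2ry12, are also platelet genes. Under 10 TPM in both libraries, Adgre1 (0.938 TPM in Runx1+ IAHCs and 1.83 TPM in HECs) and Mrc1 (0.462 TPM in Runx1+ IAHCs and 1.35 TPM in HECs) were higher in HECs. C1qb (4.96 TPM in Runx1+ IAHCs and 0.176 TPM in HECs) and Cx3cr1 (4.97 TPM in Runx1+ IAHCs and 0.446 TPM in HECs) were higher in Runx1+ IAHCs.

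**Figure D2:**
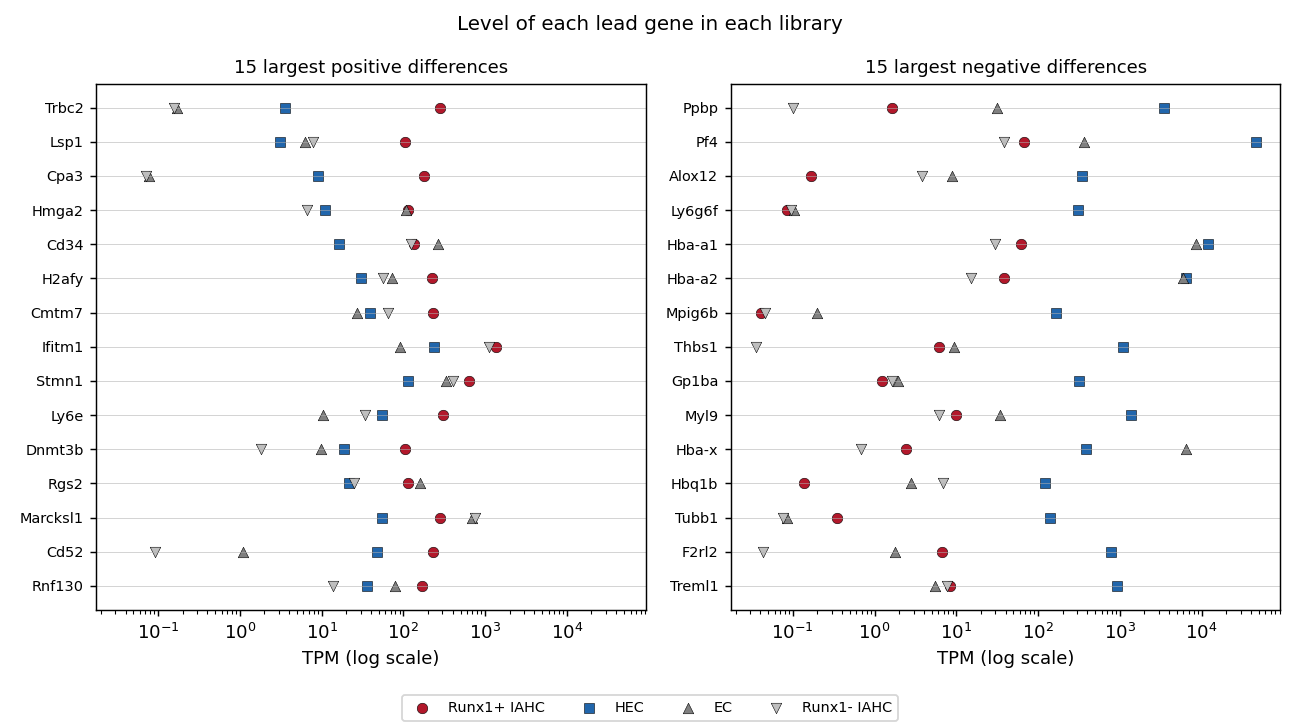
Level in TPM (horizontal axis, log scale) of the 15 genes with the largest positive (left panel) and the 15 with the largest negative (right panel) difference between Runx1+ IAHCs and HECs, among genes that reached 100 TPM in either, in all 4 libraries, 1 point per library. Trbc2, Cpa3 and Cd52 are low in ECs and Runx1- IAHCs as well, whereas Cd34, Hmga2 and Marcksl1 are about as high in ECs as in Runx1+ IAHCs or higher; on the right, Hba-a1, Hba-a2 and Hba-x are high in ECs too.

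Transcription factors of hemogenic cells and HSPCs went both ways. Of 35 listed, 27 were compared, 9 were higher by 4-fold or more and 3 lower, with a median of 0.66. Of all genes compared, 2.79% were higher and 6.22% lower. Apart from Myc, the higher ones reached 10 TPM in Runx1+ IAHCs and not in HECs, so they had to differ in that direction. Over all 35 the median was 1.04. The higher ones included Ikzf1, the Ikaros factor of lymphoid priming (71.05 TPM in Runx1+ IAHCs and 3.89 TPM in HECs), and Runx3 (14.9 TPM in Runx1+ IAHCs and 0.134 TPM in HECs, 129-fold, 59.1 to 353). Also higher were Myb (33.4 TPM in Runx1+ IAHCs and 2.37 TPM in HECs), Bcl11a (15.97 TPM in Runx1+ IAHCs and 0.850 TPM in HECs), Hlf (10.6 TPM in Runx1+ IAHCs and 1.06 TPM in HECs) and Myc (108 TPM in Runx1+ IAHCs and 24.1 TPM in HECs). The lower ones were Gfi1b and Tal1, named above, and Klf2, a flow-induced factor, at 7.39 TPM in Runx1+ IAHCs and 35.2 TPM in HECs. Gata2 was at 25.5 TPM in Runx1+ IAHCs and 16.7 TPM in HECs, and Lmo2 was at 142 TPM in Runx1+ IAHCs and 175 TPM in HECs. Lyl1 was at 75.9 TPM in Runx1+ IAHCs and 134 TPM in HECs, and Etv6 at 32.3 TPM in Runx1+ IAHCs and 33.5 TPM in HECs. Cbfb, the binding partner of all Runx proteins, was at 36.2 TPM in Runx1+ IAHCs and 9.24 TPM in HECs. Spi1, the PU.1 factor of myeloid cells, was at 52.6 TPM in Runx1+ IAHCs and 14.3 TPM in HECs, and both genes lay just within 4-fold on this scale.

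HSPC surface genes and genes associated with stem cells were likewise divided. Of 24 surface genes, 21 were in the table and 16 compared, with 7 higher, 3 lower and a median of 1.63. Kit and Ptprc, set by the gates, are 2 of the 7. Apart from Cd34 and Ly6e, the 7 reached 10 TPM in Runx1+ IAHCs and not in HECs. Over all 21 the median was 1.45. Cd34 (chromosome 1, 194938819 to 194961279), a sialomucin of endothelium and progenitors, was at 134 TPM (132 to 137) in Runx1+ IAHCs and 16.1 TPM (15.2 to 17.1) in HECs, with 267 TPM in ECs and 125 TPM in Runx1- IAHCs. For Cd34, HECs were the lowest of the 4 libraries. Cd27 (18.7 TPM in Runx1+ IAHCs and 1.52 TPM in HECs) and Spn, which encodes CD43 (22.8 TPM in Runx1+ IAHCs and 3.56 TPM in HECs), were higher. Cd44 (76.7 TPM in Runx1+ IAHCs and 27.4 TPM in HECs) and Cd93 (29.7 TPM in Runx1+ IAHCs and 9.86 TPM in HECs) lay within 4-fold. Among the lower ones were Itga2b, named above, and Slamf1, which encodes CD150, at 0.255 TPM (15 reads) in Runx1+ IAHCs and 21.2 TPM in HECs. Both are also expressed in megakaryocytes. Adgrg1, which encodes GPR56, was close at 88.2 TPM in Runx1+ IAHCs and 115 TPM in HECs. Of 20 genes associated with stem cells, 11 were compared, 3 higher (Hmga2, Hoxa9 and Hlf) and 2 lower, Esam among them, with a median of 0.66. Hox and TALE genes had 5 of 30 compared: Hoxa9 (13.3 TPM in Runx1+ IAHCs and 0.978 TPM in HECs) and Hoxa7 (12.6 TPM in Runx1+ IAHCs and 0.932 TPM in HECs) were higher, 1 was lower, and Meis1 and Pbx2 lay within 4-fold. The median of the 5 was 0.68, and over all 30 it was 0.0027.

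The fetal programme that Lin28b controls was above 0 for all 10 genes compared, out of 15 listed and 14 in the table. The median was 1.13, and 2 genes passed 4-fold. Lin28b, Arid3a, Igf2bp1, Igf2bp2 and Igf2bp3 reached 10 TPM in Runx1+ IAHCs and not in HECs, so they had to be above 0. Under 10 TPM in both libraries, Plag1 and Plagl1 were below 0, and Trim71 and Lin28a above 0. Over all 14 the median was 0.90. Hmga2 (chromosome 10, 120361275 to 120476469), a chromatin protein of fetal stem cells, was at 113 TPM (111 to 116) in Runx1+ IAHCs and 10.9 TPM (10.1 to 11.6) in HECs, with 107 TPM in ECs and 6.56 TPM in Runx1- IAHCs. Dnmt3b, a DNA methyltransferase, was at 106 TPM in Runx1+ IAHCs and 18.8 TPM in HECs. The 3 insulin-like growth factor 2 mRNA-binding proteins Igf2bp1 (25.4 TPM in Runx1+ IAHCs and 5.85 TPM in HECs), Igf2bp2 (10.99 TPM in Runx1+ IAHCs and 2.01 TPM in HECs) and Igf2bp3 (21.0 TPM in Runx1+ IAHCs and 8.22 TPM in HECs) were higher, within 4-fold on the log2(TPM + 1) scale. Lin28b itself was at 14.1 TPM in Runx1+ IAHCs and 9.45 TPM in HECs.

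Among signalling genes common to blood cells, 33 of 36 listed were in the table and 31 compared, with 9 higher, 1 lower and a median of 1.06. The median rested on genes that were low in HECs and was -0.0076 where the minimum was 50 TPM. Lsp1 (chromosome 7, 142460809 to 142494867), an actin-binding protein of leukocytes, was at 106 TPM in Runx1+ IAHCs and 3.13 TPM in HECs, 34.05-fold higher (29.2 to 39.9). Cd52 was at 228 TPM in Runx1+ IAHCs and 47.98 TPM in HECs. Ptprc, Cytip, Evi2a, Lcp1, Selplg, Arhgap9 and Dock2 made up the rest of the 9, Ptprc as a gated gene. Genes of immunoreceptor tyrosine signalling were divided. Lcp2, which encodes SLP-76, was at 8.39 TPM in Runx1+ IAHCs and 108 TPM in HECs (12.9-fold lower, 11.6 to 14.3), and Fcer1g was at 562 TPM in Runx1+ IAHCs and 2033 TPM in HECs. The kinase genes Syk (16.5 TPM in Runx1+ IAHCs and 50.1 TPM in HECs), Btk (24.98 TPM in Runx1+ IAHCs and 79.5 TPM in HECs) and Lyn (25.99 TPM in Runx1+ IAHCs and 91.7 TPM in HECs) were lower within 4-fold. Tyrobp, another such adaptor, was higher at 734 TPM in Runx1+ IAHCs and 239 TPM in HECs. Of 39 cytokine receptor and stem cell factor genes, 36 were in the table and 16 compared, with 4 higher, 2 lower and a median of 0.54. Beside Flt3 and the gated Kit, the higher ones were Ifngr1, a chain of the interferon gamma receptor (79.2 TPM in Runx1+ IAHCs and 13.3 TPM in HECs), and Tnfrsf1a (23.9 TPM in Runx1+ IAHCs and 4.84 TPM in HECs). Epor was among the lower ones.

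Interferon-related and MHC class I genes had 11 of 23 compared, with 5 higher, 0 lower and a median of 1.06. Of the 5, Psmb8, Psmb9 and Cd74 reached 10 TPM in Runx1+ IAHCs and not in HECs, and over all 23 the median was 0.87. Psmb8, an immunoproteasome subunit that interferon induces, was at 48.7 TPM in Runx1+ IAHCs and 0.875 TPM (24 reads) in HECs, 58.0-fold higher (38.8 to 90.8). Its partner Psmb9 was at 12.1 TPM in Runx1+ IAHCs and 2.12 TPM in HECs. Cd74, the MHC class II invariant chain, was at 22.5 TPM in Runx1+ IAHCs without a read in HECs, at least 110-fold higher. For these 3 genes the exonic length was found by search, so their reads are less certain. Ly6e was at 307 TPM in Runx1+ IAHCs and 54.8 TPM in HECs, and Ifitm1 at 1342 TPM in Runx1+ IAHCs and 238 TPM in HECs. Ifitm2 (444 TPM in Runx1+ IAHCs and 486 TPM in HECs) and Ifitm3 (508 TPM in Runx1+ IAHCs and 521 TPM in HECs) were level. The standard proteasome was level as well: of 32 subunit genes compared (34 listed), only Psmb8 and Psmb9 were 4-fold apart, and the median was 0.02. Psmb9 takes the place of a standard subunit whose gene, Psmb6, was close at 532 TPM in Runx1+ IAHCs and 685 TPM in HECs, and Psmb10, the remaining immunoproteasome subunit gene, was at 179 TPM in Runx1+ IAHCs and 79.05 TPM in HECs.

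Endothelial genes were lower in Runx1+ IAHCs than in HECs on balance, and the summed endothelial markers of HECs were themselves below those of ECs, as given above. Of 43 listed, 42 were in the table and 20 compared, with 2 higher, 6 lower and a median of -0.89. Below 0 were 15 of the 20. Of these, Cldn5, Vwf, Kdr, Cdh5, Ramp2, Eng and Tek reached 10 TPM in HECs only, which set their direction. Sox18, Calcrl and Adgrl4 reached it in Runx1+ IAHCs only and had to be above 0. Over all 42 the median was -0.79. The 6 lower genes include Tal1, given above with the megakaryocyte factors. Kdr, the receptor for vascular endothelial growth factor, was at 1.93 TPM in Runx1+ IAHCs and 21.7 TPM in HECs (11.3-fold lower, 9.70 to 13.3), with 184 TPM in ECs. The tight junction gene Cldn5 was at 8.68 TPM in Runx1+ IAHCs and 43.7 TPM in HECs, and Esam at 15.6 TPM in Runx1+ IAHCs and 90.05 TPM in HECs. Myct1 was at 10.6 TPM in Runx1+ IAHCs and 57.1 TPM in HECs, and Vwf, which platelets also hold, at 1.66 TPM in Runx1+ IAHCs and 34.3 TPM in HECs. Cdh5, which encodes VE-cadherin, differed less, at 9.65 TPM in Runx1+ IAHCs and 18.6 TPM in HECs, as did Tek (5.46 TPM in Runx1+ IAHCs and 11.1 TPM in HECs), the angiopoietin receptor. Higher were Cd34 and Adgrl4 (23.2 TPM in Runx1+ IAHCs and 2.88 TPM in HECs), both with higher levels in ECs, 267 TPM for Cd34 and 59.9 TPM for Adgrl4. Arterial and Notch genes had 4 of 25 compared, 2 higher and 2 lower (median -0.16, against -0.35 over all 25). Each of the 4 reached 10 TPM in 1 library only, which set its direction. The Notch target Hes1 (17.9 TPM in Runx1+ IAHCs and 1.46 TPM in HECs, 12.7-fold higher, 8.74 to 19.1) and the receptor Notch2 (11.2 TPM in Runx1+ IAHCs and 1.71 TPM in HECs) were higher. The arterial connexin genes Gja4 (4.20 TPM in Runx1+ IAHCs and 47.4 TPM in HECs) and Gja5 (0.957 TPM in Runx1+ IAHCs and 10.03 TPM in HECs) were lower. None of the 11 venous and lymphatic genes reached 10 TPM in either library. Of 15 flow response genes, 5 were compared, 1 (Klf2) was lower and the median was -0.91.

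Adhesion and matrix genes seldom reached 10 TPM. Of 27 extracellular matrix genes, 7 were compared, 1 was 4-fold lower (Thbs1) and the median was -1.58, against -0.50 over all 27. The basement membrane collagen genes Col4a1 (3.71 TPM in Runx1+ IAHCs and 14.9 TPM in HECs) and Col4a2 (4.90 TPM in Runx1+ IAHCs and 15.5 TPM in HECs) lay within 4-fold. Of 17 integrin genes, 15 were in the table and 7 compared (1 higher, 3 lower, median -1.94, against -0.17 over all 15). Itga4, whose protein binds VCAM1 and fibronectin, was the higher one, at 17.5 TPM in Runx1+ IAHCs and 1.36 TPM in HECs (12.99-fold, 11.2 to 15.1). Its partner subunit Itgb1 was lower at 48.7 TPM in Runx1+ IAHCs and 201 TPM in HECs. Of 27 genes of the TGF-beta and BMP pathway, 25 were in the table and 9 compared, with a median of 0.72. The receptor gene Tgfbr2 was at 11.8 TPM in Runx1+ IAHCs and 2.20 TPM in HECs, and Ltbp1, which encodes a latency protein, was at 1.48 TPM in Runx1+ IAHCs and 27.2 TPM in HECs. The target genes Id1 (56.4 TPM in Runx1+ IAHCs and 21.6 TPM in HECs) and Id3 (16.01 TPM in Runx1+ IAHCs and 39.02 TPM in HECs) differed in opposite directions within 4-fold. Of 22 pericyte and smooth muscle genes, 2 were compared, and both, Acta2 (11.6 TPM in Runx1+ IAHCs and 51.01 TPM in HECs) and Myl9 (9.80 TPM in Runx1+ IAHCs and 1359 TPM in HECs), were lower. Myl9, a myosin light chain, is also abundant in platelets. Of 22 neural, hepatic and muscle genes, Actc1 alone was compared, at 1.52 TPM in Runx1+ IAHCs and 113 TPM in HECs. Of 23 germ cell genes, 3 were compared (median -0.03): Ifitm1 and Ifitm3, given above, and Dppa5a, without a read in Runx1+ IAHCs and at 11.3 TPM in HECs.

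Genes of DNA replication, ribosome production and nucleotide synthesis were shifted upwards in Runx1+ IAHCs by small but shared differences, whereas cholesterol synthesis and actin genes were shifted downwards. Of 44 replication and S phase genes compared (51 listed), 43 were above 0, 0 were 4-fold apart and the median was 0.83, beside 0.19 for all genes. Of the 43, Orc6, Prim2 and Mcm2 were above 0 by less than the median of all genes. Cdc6, Pold1, Mcm10, Clspn, Chaf1b, Orc1 and Ung reached 10 TPM in Runx1+ IAHCs only, so they had to be above 0. Over all 49 replication genes in the table the median was 0.85. Hells, a chromatin remodeller, had the largest difference, at 45.4 TPM in Runx1+ IAHCs and 11.9 TPM in HECs. The helicase subunit genes ran from Mcm7 (78.7 TPM in Runx1+ IAHCs and 35.6 TPM in HECs) to Mcm2 (44.3 TPM in Runx1+ IAHCs and 39.8 TPM in HECs). Of 48 mitosis genes compared (55 listed), 38 were above 0 and none was 4-fold apart (median 0.51). Ttk, Kif2c, Nuf2, Kif20b, Cenpf, Ncapg, Kif20a and Kif23 reached 10 TPM in Runx1+ IAHCs only, which set their direction. Over all 55 the median was 0.53. Top2a was at 80.6 TPM in Runx1+ IAHCs and 34.5 TPM in HECs. Ccnb1 (34.5 TPM in Runx1+ IAHCs and 40.0 TPM in HECs) and Aurka (67.9 TPM in Runx1+ IAHCs and 67.96 TPM in HECs) were level. Among 9 cell cycle regulators of G1 compared of 16 (median 0.65), Cdk6 was at 33.2 TPM in Runx1+ IAHCs and 6.28 TPM in HECs. The CDK inhibitor gene Cdkn2d (52.7 TPM in Runx1+ IAHCs and 429 TPM in HECs) and the retinoblastoma gene Rb1 (4.77 TPM in Runx1+ IAHCs and 37.9 TPM in HECs) were lower. Ccnd3 was at 15.02 TPM in Runx1+ IAHCs and 57.9 TPM in HECs.

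**Figure D3:**
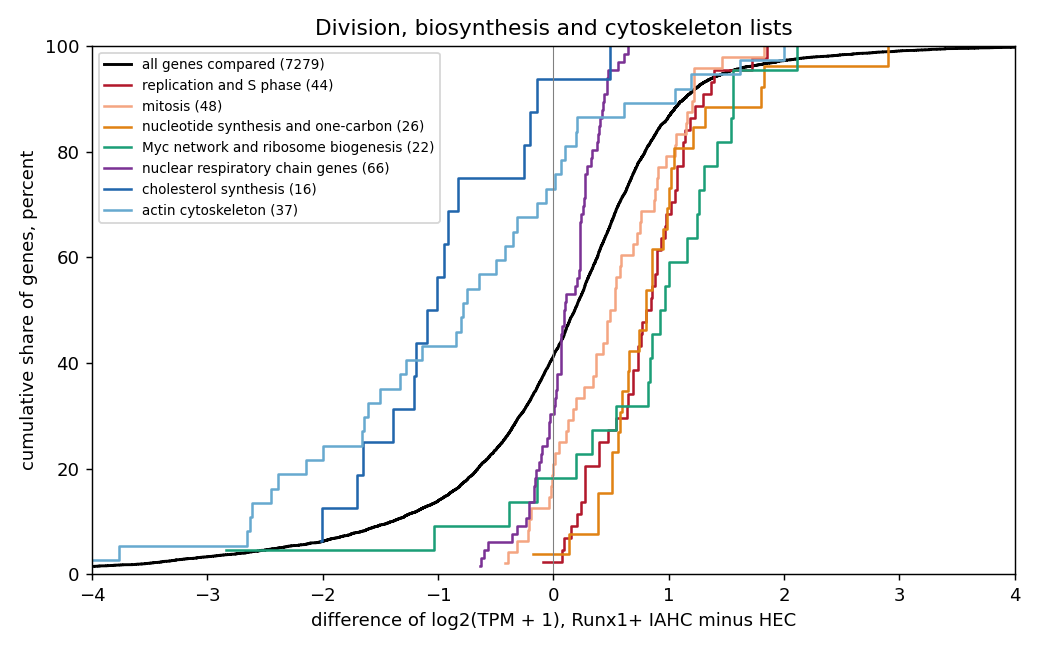
Cumulative share of genes in percent (vertical axis) against the difference of log2(TPM + 1), Runx1+ IAHC minus HEC (horizontal axis), for all 7279 genes compared (black) and 7 gene lists, with the number of genes in brackets. The curves for replication, nucleotide synthesis and ribosome biogenesis lie to the right of the black curve around their medians and those for cholesterol synthesis and the actin cytoskeleton to its left; genes outside -4 to 4 are not drawn.

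The Myc network and ribosome biogenesis list had 22 of 28 genes compared, 18 above 0 and a median of 0.95. Cad, Gar1 and Polr1b reached 10 TPM in Runx1+ IAHCs only, and Mxd1 and Mxi1 in HECs only, which set their direction. Over all 27 in the table the median was 0.93. Myc was 4.47-fold higher (4.12 to 4.87). The nucleolar genes Ncl (343 TPM in Runx1+ IAHCs and 143 TPM in HECs), Npm1 (2246 TPM in Runx1+ IAHCs and 839 TPM in HECs) and Fbl (37.03 TPM in Runx1+ IAHCs and 11.9 TPM in HECs) were higher within 4-fold. An antagonist gene of this network, Mxd1, was lower at 2.76 TPM in Runx1+ IAHCs and 25.99 TPM in HECs. Nucleotide synthesis and one-carbon genes had 26 of 28 compared, 25 above 0 and a median of 0.80. Phgdh, Cad, Dhodh and Atic reached 10 TPM in Runx1+ IAHCs only, which set their direction. Over all 27 in the table the median was also 0.80. Phgdh, the first enzyme of serine synthesis, was at 70.04 TPM in Runx1+ IAHCs and 8.51 TPM in HECs (8.26-fold higher, 7.18 to 9.55). The serine hydroxymethyltransferase genes Shmt1 (37.9 TPM in Runx1+ IAHCs and 10.2 TPM in HECs) and Shmt2 (113 TPM in Runx1+ IAHCs and 31.3 TPM in HECs) were higher within 4-fold. Ribosomal protein genes took 7.73% of all TPM in Runx1+ IAHCs and 5.16% in HECs. Glycolysis genes were mixed (19 of 25 compared, 7 above 0, median -0.23). Hexokinase 2 (Hk2) was at 23.9 TPM in Runx1+ IAHCs and 4.91 TPM in HECs, and Slc2a3, the glucose transporter GLUT3, which platelets carry, was at 15.99 TPM in Runx1+ IAHCs and 167 TPM in HECs. Of 16 cholesterol synthesis genes compared (23 listed), 15 were below 0, 2 were 4-fold lower and the median was -1.05. Idi1 and Mvk reached 10 TPM in HECs only, which set their direction. Over all 21 in the table the median was -0.95. Idi1 was at 4.54 TPM in Runx1+ IAHCs and 21.4 TPM in HECs. Respiratory chain genes were level, with 0 of 66 nuclear genes (71 listed) and 0 of 11 mitochondrially encoded genes (15 listed) 4-fold apart. Their medians were 0.09 and 0.05.

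Cytoskeletal genes were lower in Runx1+ IAHCs on balance. Of 37 actin cytoskeleton genes compared (40 listed), 8 were at least 4-fold lower, 1 was at least 4-fold higher and the median was -0.78. Of the 37, 27 were below 0 and 10 above. Myl9, Actn1 and Vcl reached 10 TPM in HECs only, which set their direction. Over all 39 in the table the median was -0.75. Tmsb4x, the thymosin that binds actin monomers, was the most abundant gene outside the mitochondrial, hemoglobin and ribosomal genes in Runx1+ IAHCs, at 6485 TPM, and was at 20258 TPM in HECs, where it came second to Pf4. Actb was at 2756 TPM in Runx1+ IAHCs and 4808 TPM in HECs, and Tpm4 at 117 TPM in Runx1+ IAHCs and 1606 TPM in HECs. Flna, which encodes filamin A, was at 23.1 TPM in Runx1+ IAHCs and 147 TPM in HECs, and Zyx, a focal adhesion protein, at 49.6 TPM in Runx1+ IAHCs and 319 TPM in HECs. Cnn3 was the gene at least 4-fold higher, at 78.4 TPM in Runx1+ IAHCs and 18.9 TPM in HECs. Tmsb10 was higher within 4-fold, at 500.5 TPM in Runx1+ IAHCs and 162 TPM in HECs. Of 11 tubulin genes compared (15 listed), 4 were at least 4-fold lower and 3 were above 0 (median -0.87). Tubb1, the beta tubulin of platelets, was at 0.349 TPM (4 reads) in Runx1+ IAHCs and 139 TPM in HECs, and Tuba4a at 95.97 TPM in Runx1+ IAHCs and 525 TPM in HECs. The common Tubb5 was at 1099 TPM in Runx1+ IAHCs and 886 TPM in HECs. Tubb2a and Tubb2b, which were also lower, are close paralogs.

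Few stress, survival and chromatin genes were 4-fold apart, too few to set these lists off from the 9.01% of all genes compared. Of 23 immediate early and heat shock genes compared (28 listed), Dusp2 was higher, at 38.3 TPM in Runx1+ IAHCs and 7.55 TPM in HECs, and Ddit3, which encodes the stress factor CHOP, was lower, at 16.2 TPM in Runx1+ IAHCs and 70.2 TPM in HECs (median 0.30). Fos was at 18.7 TPM in Runx1+ IAHCs and 33.5 TPM in HECs. Of 12 Bcl2 family and p53 genes compared of 20, Pmaip1, which encodes the death protein NOXA, was at 24.2 TPM in Runx1+ IAHCs and 2.86 TPM in HECs, and Bcl2a1d at 11.7 TPM in Runx1+ IAHCs and 1.77 TPM in HECs (list median 0.11). Bcl2l1, which encodes the survival protein Bcl-xL, was at 8.97 TPM in Runx1+ IAHCs and 38.1 TPM in HECs, within 4-fold on the log2(TPM + 1) scale. Of 26 chromatin genes compared (36 listed), 2 were higher and 0 lower, with a median of 0.67. H2afy (chromosome 13, 56073619 to 56136361), which encodes the histone variant macroH2A1, was at 226 TPM (223 to 230) in Runx1+ IAHCs and 30.4 TPM (29.1 to 31.7) in HECs. Dnmt3a was level at 18.2 TPM in Runx1+ IAHCs and 17.7 TPM in HECs. Of 15 common reference genes compared (18 listed), 0 were 4-fold apart, and their median was 0.33.

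**Figure D4:**
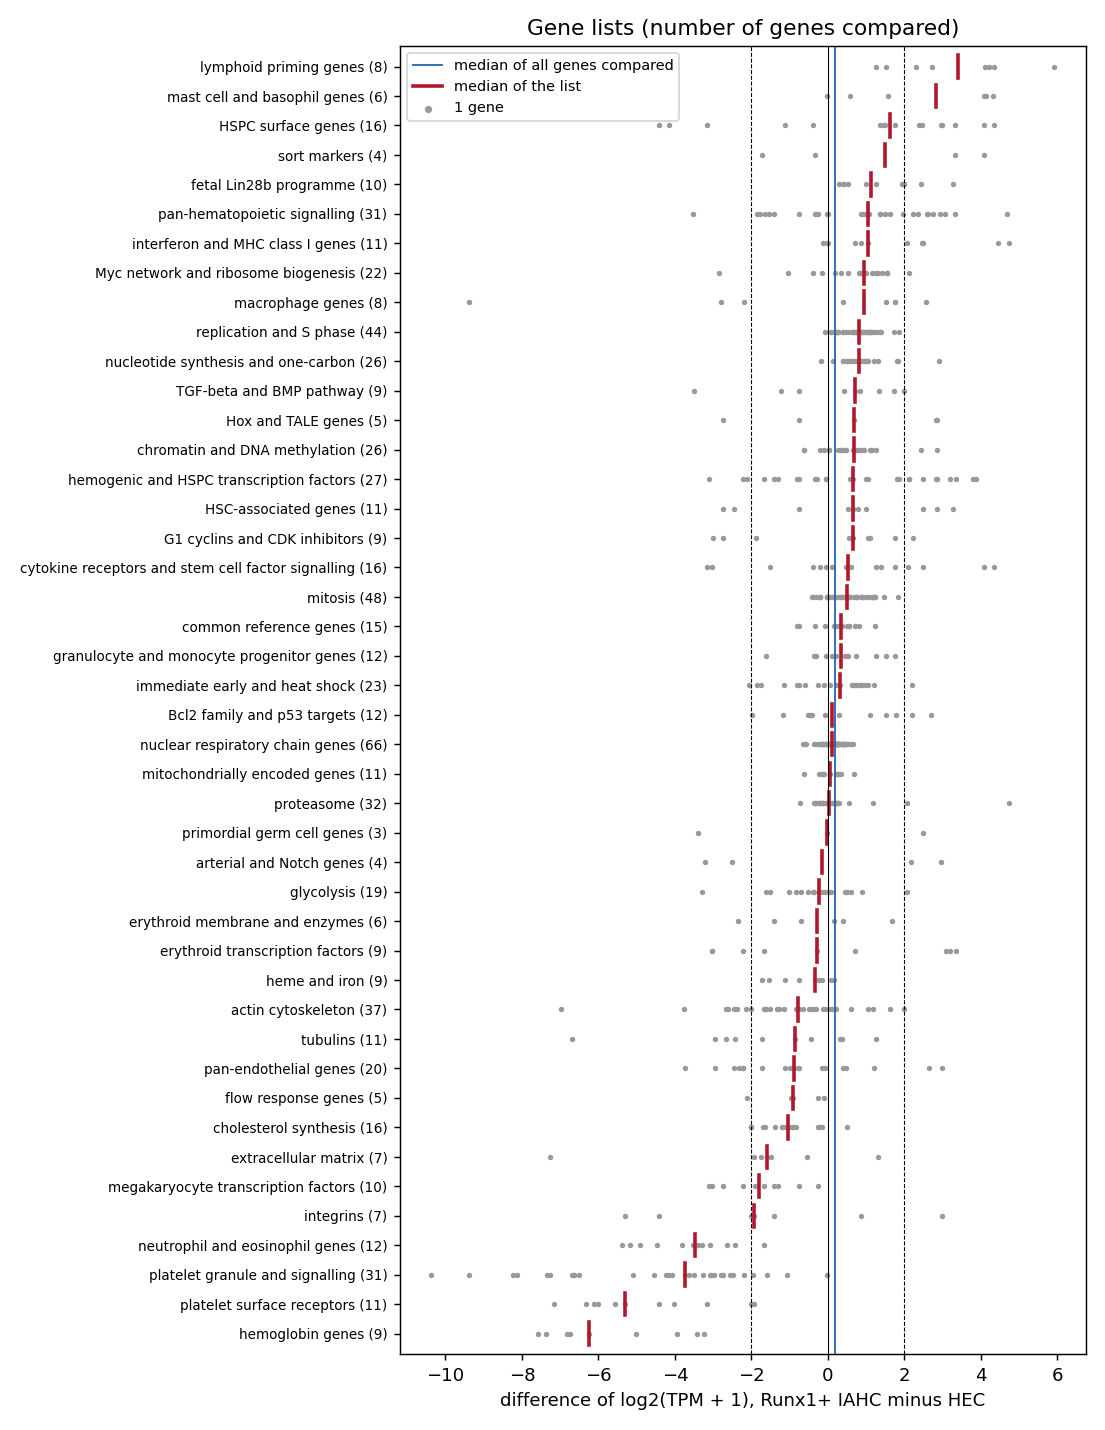
Difference of log2(TPM + 1), Runx1+ IAHC minus HEC (horizontal axis), for each gene (grey points) of the gene lists with 3 or more genes compared, in order of the list's median (red bar), with the median of all 7279 genes (blue line, 0.19) and dashed lines at 4-fold. Hemoglobin, platelet and granulocyte genes lie lowest and the 8 lymphoid priming and 6 mast cell genes compared highest, while respiratory chain and proteasome genes lie near 0.

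The remaining genes with the largest positive differences at 100 TPM or more were of several kinds. Stmn1, a microtubule regulator of dividing cells, was at 644 TPM in Runx1+ IAHCs and 115 TPM in HECs. Marcksl1, a membrane protein that binds actin, was at 279.5 TPM in Runx1+ IAHCs and 54.9 TPM in HECs, and Rgs2, a regulator of G protein signalling, at 113 TPM in Runx1+ IAHCs and 21.4 TPM in HECs. Cmtm7 was at 229 TPM in Runx1+ IAHCs and 39.5 TPM in HECs, and Rnf130, a ubiquitin ligase gene, at 171 TPM in Runx1+ IAHCs and 35.9 TPM in HECs. Among the most abundant genes, Gpx1, a peroxide-removing enzyme, was at 3472 TPM in Runx1+ IAHCs and 1470 TPM in HECs. Fth1, the ferritin heavy chain, was at 2771 TPM in Runx1+ IAHCs and 3240 TPM in HECs, and the elongation factor gene Eef1a1 at 2768 TPM in Runx1+ IAHCs and 1901 TPM in HECs.

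Some genes outside the lists were named after their values were seen. Below 100 TPM, the 2 largest positive differences were those of Wfdc17 (99.3 TPM in Runx1+ IAHCs, no read in HECs, at least 184-fold higher) and Ccl4 (89.9 TPM in Runx1+ IAHCs, no read in HECs, at least 206-fold higher). Ccl4 is a chemokine of activated leukocytes, and its neighbour Ccl3 was at 80.8 TPM in Runx1+ IAHCs and 4.62 TPM in HECs (17.9-fold higher, 12.8 to 25.8). Ccr7, a chemokine receptor of lymphocytes and dendritic cells, was at 15.1 TPM (304 reads) in Runx1+ IAHCs without a read in HECs. Of 55 long intergenic noncoding RNAs compared, 20 were lower by 4-fold or more and 3 higher, with a median of -0.67. Of 5447 protein-coding genes, 395 were lower and 174 higher, with a median of 0.10. Malat1, a nuclear noncoding RNA, was at 132 TPM in Runx1+ IAHCs and 549 TPM in HECs, and Neat1, its neighbour, at 1.14 TPM in Runx1+ IAHCs and 14.1 TPM in HECs.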

How the data were processed

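RNA from cells sorted from E11 AGM was read as full-length cDNA (Smarter2 by the study's methods, a SMARTER mRNA kit by the labels) in libraries that do not mark strand, so overlapping and antisense genes cannot be separated. Per the study's methods, the authors aligned the reads with HISAT2 (2.0.4) to GRCm38, counted them per GENCODE gene, and deposited TPM. The deposited TPM values were whole multiples of a step for each gene and library. With GENCODE M21 exonic lengths, reads came out whole (relative tolerance 1e-06, after removal of 1 added read per gene) for 49294 of 51205 genes (96.3%). For the other 1911 genes the length was found by search, including Runx1, Psmb8, Psmb9, Cd74, Pmaip1, Gp1bb and Ltbp1. Close paralogs and pseudogene copies can share or lose reads.

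The Runx1+ IAHC and HEC libraries, 1 each, were compared by the difference of log2(TPM + 1) over genes that reached 10 TPM in either, and genes at least 4-fold apart on this scale were counted. Intervals are exact 95% Poisson (levels) and Clopper-Pearson (folds) intervals, and folds against a library without a read use a floor of 3 reads per library. Named genes were members of 47 gene lists, the 15 highest and 15 lowest differences at 100 TPM or more without predicted symbols, and the 5 most abundant genes per library outside mitochondrial, hemoglobin and ribosomal protein genes. Members and lists were chosen with earlier results of these data known. Some list genes were not analysed here or are counted in their lists but not reported here. Symbols used by more than 1 identifier were resolved by GENCODE M21. The 9 columns of other populations in 3 further sheets were not used. Other pseudocounts, minimum levels, scalings, gene sets and fold rules were tried, and the scripts were tested on simulated data. Python 3.11.15, NumPy 2.4.6, SciPy 1.17.1, pandas 2.3.3 and Matplotlib 3.10.9 were used.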

Additional observations from a re-analysis of the deposited data

How the results depend on the processing

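No paired analysis was possible because each population had 1 library. The count of genes at least 4-fold higher in Runx1+ IAHCs, 203, was 64 with log2(TPM + 5), 361 with no minimum level and with a minimum of 1 TPM, 45 with a minimum of 50 TPM in the higher library, 117 with a minimum of 10 TPM in the mean, 29 with a minimum of 10 TPM in both libraries, 970 at 2-fold and 69 at 8-fold. The count of lower genes, 453, was 280 with log2(TPM + 5), 201 with a minimum of 50 TPM, 112 with a minimum of 10 TPM in both, 1010 at 2-fold and 241 at 8-fold. A higher minimum, a larger fold and a larger pseudocount reduce such counts by construction. Over all genes the median, 0.19, became 0.0054 with no minimum, 0.028 with a minimum of 1 TPM, -0.022 with the median of ratios and 0.038 after rescaling without mitochondrial, ribosomal protein, hemoglobin, platelet and megakaryocyte genes. The median of the sort markers, 1.49, was -0.33 with a minimum of 10 TPM in the mean and -1.02 with that minimum in both libraries, which leave out the gated genes that are low in HECs. The median of pan-hematopoietic signalling genes, 1.06, was -0.0076 with a minimum of 50 TPM and with a minimum of 10 TPM in both libraries. The median of neural, hepatic and muscle genes, -5.51 from Actc1 alone, was 0.00095 with no minimum. Of 541 results on 46 lists, 281 moved by less than 0.1 (log2), 255 moved by more and kept their direction or were under 1 in size, and 5 reversed. Of 87 single-gene results under 3 scalings, 0 reversed. At 4-fold, the share of calls that were higher, 30.9%, ranged between 18.3% and 37.7% under the other pseudocounts, minimum levels, scalings and gene set. With 1 library per population, differences between embryos, sorts and library preparations cannot be told apart from those between Runx1+ IAHCs and HECs. The recovered reads limit the precision of genes such as Alox12, Gp6 and Tubb1, which had 1 to 6 reads in Runx1+ IAHCs.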
